A study of Rattus norvegicus with 6 samples.

Results

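On a rat transcriptome array, 44891 of the 68842 probe sets that are not controls carry no gene symbol in the platform annotation, and these probe sets are described here. They were chosen by that missing symbol alone, not by any measured value. The other 23951 probe sets carry a symbol (23446 a single one and 505 several) and serve as the comparison. Liver RNA of 6 adult Sprague Dawley rats was hybridised, 1 array per animal. In 3 of them (STZ-O) the father had been made hyperglycaemic by intraperitoneal streptozotocin, a toxin of insulin-producing beta cells, before mating with a healthy female. In the other 3 (CB-O) the father had received citrate buffer. All offspring ate regular chow and were killed in the fed state, each test used 1 rat per litter, and the sexes were not separated. The Y-linked gene Ddx3y read 9.44, 9.36 and 9.43 in STZ-O livers, against 9.22, 9.67 and 9.37 in CB-O livers. Eif2s3y, also Y-linked, read 8.60, 8.57 and 8.64, against 8.38, 8.67 and 8.56, so no array was low in either. The labels record streptozotocin or buffer for the fathers only. The design text asks how a father's high blood glucose affects the next generation. Litters are the only separation the labels give between animals of a group, and p-values measure the spread between 3 arrays per group.

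Transcriptome arrays of this kind carry probe sets for many transcribed stretches besides named genes. These include predicted long non-coding RNAs, small RNAs, gene fragments, repeated elements and the segments from which lymphocytes assemble antigen receptors. The heavy chain of an antibody is one example: a B lymphocyte joins a variable segment from a long row of them to a constant region, and plasma cells then secrete the product. In liver such cells are a minority beside hepatocytes, the cells that make most plasma proteins. A probe set is named below only by its id, whose digits after TC give the chromosome, and genes are named only where a neighbouring probe set carries their symbol. Of the members, 43024 lay on numbered chromosomes, 1686 on X, 37 on mitochondrial ids, 0 on Y and 144 on unplaced sequence. Values are the deposited log2 levels, and a difference is the STZ-O mean less the CB-O mean on that scale.

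The files hold no probe sequences, so the members' own letters are not shown. The order of the ids could be checked against a reference gene set (RefSeq, rat build GRCr8): 98.7% of 21791 matched probe sets lay on the chromosome of their id, and in 92.1% of neighbouring pairs the later id lay further along it. Of the members, 84 had values identical to those of a probe set with a symbol. Olfactory receptor symbols made up 40 of these, and microRNA symbols 5. MicroRNAs are short RNAs that bind messenger RNAs through bases 2 to 8, the seed. The mature sequences of these 5 microRNAs are shown because equal values are the only link from a member to a known short sequence here, from RefSeq with the seed in capitals.
rno-miR-29b-5p: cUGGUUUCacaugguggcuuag
rno-miR-29b-3p: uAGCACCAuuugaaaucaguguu
rno-miR-3556b: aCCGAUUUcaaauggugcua
rno-miR-196b-3p: uCGACAGCacgacacugccuuca
rno-miR-196b-5p: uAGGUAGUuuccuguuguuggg
rno-miR-190a-5p: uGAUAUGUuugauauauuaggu
rno-miR-6319: uCAUUCUCgcugcucuggagu
The member that shared its values with Mir29b2 was TC0100000393.rn.1, on chromosome 1, while GRCr8 places miR-29b-3p at chr13:109098882-109098904 on the plus strand. It read 4.17, 3.97 and 3.89 in the STZ-O arrays, against 3.66, 3.75 and 3.83 in the CB-O arrays. The STZ-O values were all above the CB-O values, by 0.26 ± 0.09 (limma standard error), with an adjusted p of 0.911. This level was below the median of the negative controls. The member tied to Mir3556b, TC0100004344.rn.1, averaged 5.73 in STZ-O and 5.67 in CB-O livers. Reversed and complemented, miR-3556b equals the start of miR-29b-3p at 19 of 20 bases. The members tied to Mir196b (5.996 in STZ-O, 6.12 in CB-O) and Mir190 (2.04 in STZ-O, 2.06 in CB-O) had overlapping groups. The member tied to rno-mir-6319, TC1700000532.rn.1, read 6.74, 7.04 and 7.15 in STZ-O livers, against 7.01, 6.99 and 7.28 in CB-O livers, also with overlap.

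A second sequence is shown because its gene borders a row of members that were all higher in STZ-O. Pitpnc1 encodes a phosphatidylinositol transfer protein, and its RefSeq promoter window (GRCr8 chr10:92928295-92928594, minus strand, 250 bases before to 50 after the gene's start) reads as follows. Capitals mark matches to the motifs searched on both strands, which were the TATA motif (TATAAA), the CAAT box (CCAAT) and the GC box (GGGCGG).
Pitpnc1 promoter: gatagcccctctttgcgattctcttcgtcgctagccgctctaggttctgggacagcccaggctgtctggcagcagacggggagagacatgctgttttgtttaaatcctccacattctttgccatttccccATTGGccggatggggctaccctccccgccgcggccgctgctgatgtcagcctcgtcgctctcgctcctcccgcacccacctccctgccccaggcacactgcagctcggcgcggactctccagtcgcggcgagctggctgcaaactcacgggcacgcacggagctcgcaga
The window held 1 match, to CCAAT on the opposite strand, and none to the others. Among 33469 promoters of the same length, 37.5% held the CAAT box, 33.1% the GC box and 14.2% the TATA motif on either strand.

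Most members were dim. Their median level over the 6 arrays was 5.46, next to 6.54 for probe sets with a symbol and 5.51 for the 1153 probe sets that the array names as negative controls. Above the median of the negative controls stood 48.2% of members and 74.9% of probe sets with a symbol. A member is called bright below when its mean exceeds 8.26, the 95th percentile of the negative controls. By this rule 4086 members were bright (9.10%), next to 13% of probe sets with a symbol. On single arrays, 4037 to 4127 members passed the same level. The values nearest to that line were 8.256 for TC0400001711.rn.1 outside it and 8.258 for TC1800000409.rn.1 inside it.

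The brightness of the members had a separate peak at the top of the scale. Between 11 and 12.5 lay 1860 members (4.14%), against 200 probe sets with a symbol (0.835%). Above 10.66, the 99th percentile of the negative controls, stood 4.84% of members and 1.31% of probe sets with a symbol. Values in the peak varied little between arrays, with a median SD of 0.0807 over the 6. Identical values were frequent among bright members, and 15 sets of at least 10 members each held 354 members. The largest held 49 members on ids of 15 chromosomes, at 11.58, 11.64 and 11.64 in STZ-O and 11.73, 11.65 and 11.68 in CB-O livers. All STZ-O values were just below the CB-O values, by -0.07 ± 0.07 (adjusted p 0.983). Its 49 members thus count as lower without overlap below, though they are 1 measurement. Of all members, 1085 shared their 6 values with another member. The 4086 bright members therefore stood for 3569 distinct measurements.

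**Figure D1:**
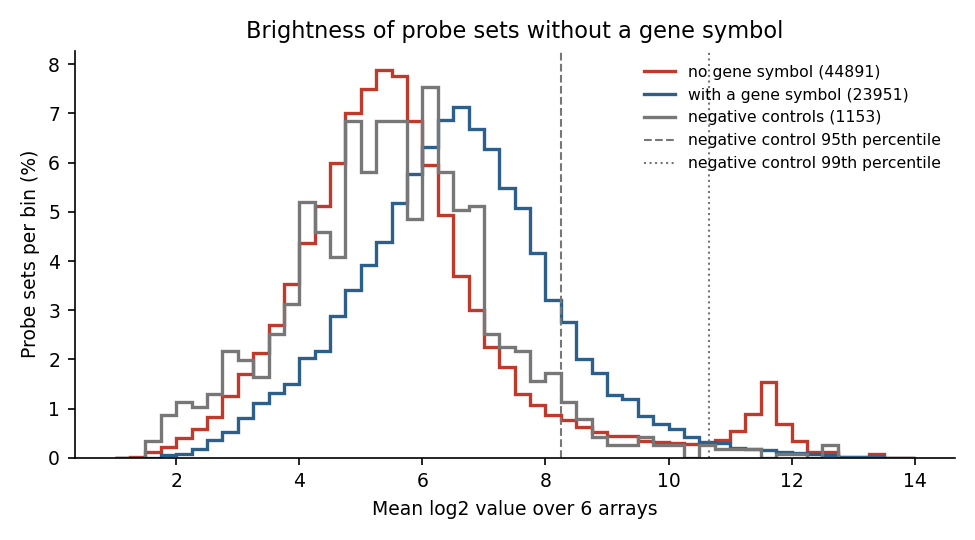
Distribution of the mean log2 level over 6 arrays (x axis) in percent of probe sets per bin (y axis), for probe sets without a symbol (red), with a symbol (blue) and negative controls (grey). The probe sets without a symbol have a median near that of the negative controls (5.46 and 5.51). They form a separate peak between 11 and 12.5, where 4.14% of them lie against 0.835% of those with a symbol.

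The 10 brightest members reached 13.35 to 13.46. TC0600002596.rn.1, next to Nemf on chromosome 6, led with 13.48, 13.44 and 13.49 in STZ-O livers, against 13.51, 13.47 and 13.38 in CB-O livers. TC0600000890.rn.1 and TC1000001007.rn.1, on chromosomes 6 and 10, had identical values, as did TC0600002597.rn.1 and TC1200001367.rn.1. Among the 10, differences ran from 0.00 to 0.03, and the groups overlapped for each of them. As for the tissue itself, 8 of 9 measured hepatocyte markers were bright, albumin among them (13.17 in STZ-O, 13.13 in CB-O livers), whereas 0 of 6 markers of pancreas, fat and muscle were.

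Brightness differed by chromosome. On X, 16.4% of the 1686 members were bright, against 9.56% of X probe sets with a symbol, the reverse of each numbered chromosome. The lowest shares were 6.26% on chromosome 12 and 6.44% on chromosome 10. Of the X members, 9.19% lay in the peak between 11 and 12.5. Mitochondrial ids stood highest, with 26 of 37 members bright. Their differences ran from -0.32 to 0.15, and 0 of 37 reached an unadjusted p under 0.05. Median differences by chromosome were narrow, from -0.01 on chromosomes 19 and 6 to 0.00 on X.

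**Figure D2:**
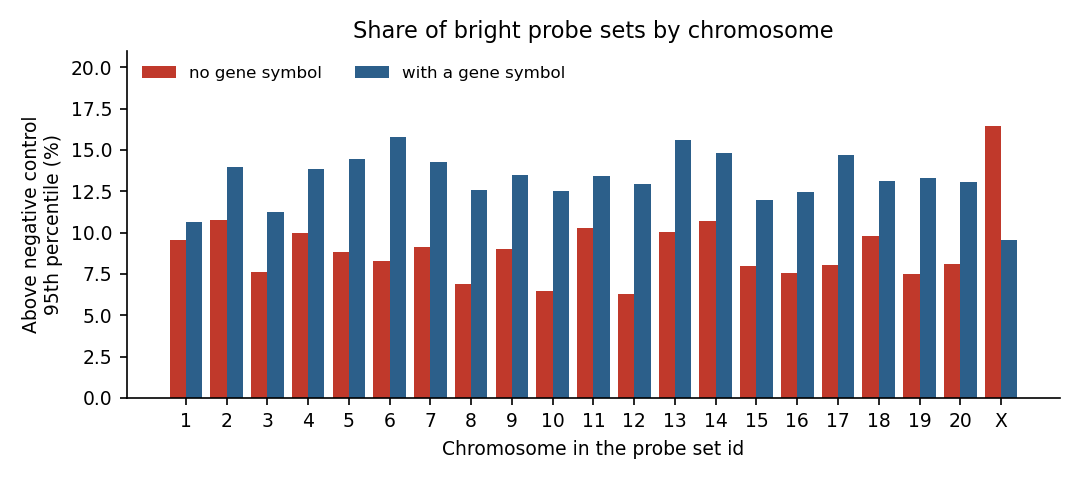
Share of probe sets above the 95th percentile of the negative controls (y axis, percent) by the chromosome in the id (x axis), for probe sets without (red) and with (blue) a gene symbol. On X the red bar reaches 16.4% and the blue 9.56%, while on each numbered chromosome the blue bar is the taller.

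Between the groups, no member passed an adjusted p of 0.05 (limma, Benjamini-Hochberg over all 68842 probe sets, of which 0.0% passed). The smallest adjusted p among members was 0.124, for TC0300000565.rn.1. At an unadjusted p under 0.05, 1373 members were higher in STZ-O (3.06%), where over all probe sets tested 2.8% were. Lower in STZ-O were 1327 members (2.96%), where over all probe sets 2.54% were. In either direction this made 2700 members (6.01%, against 5.34% of all probe sets). Every STZ-O value exceeded every CB-O value in 2013 members (4.48%, against 4.76% of all probe sets), and the reverse held in 2496 (5.56%, against 5.35%). Together the groups did not overlap in 4509 members (10.04%, against 10.1% of all probe sets). The median difference of the members was -0.0055, beside -0.0034 for probe sets with a symbol. Members varied more from array to array, with a median SD of 0.132 over the 6, against 0.0935 for probe sets with a symbol. The overall shares were thus near the background, and the members are described below by place and brightness.

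Among moderately bright members, more were higher than lower. Of the 1913 members between the 95th and 99th percentile of the negative controls, 144 were higher at an unadjusted p under 0.05 (7.53%, against 2.8% of all probe sets) and 33 lower (1.73%, against 2.54%). Among 2800 probe sets with a symbol in that range the numbers were 106 and 46. Without STZ-O replicate 2 the members' split became 90 higher and 56 lower, without CB-O replicate 3 it became 94 and 36, and after quantile normalization 111 and 55. The split of the probe sets with a symbol turned to 71 higher and 83 lower after quantile normalization, and to 76 and 81 without CB-O replicate 3. The members' median difference in this range was 0.02, and 0.00 after quantile normalization, where it was just below 0. Above the 99th percentile the 2173 members had a median difference of -0.07, with 14 higher (0.644%) and 6 lower (0.276%) at an unadjusted p under 0.05, shares below the 2.8% and 2.54% of all probe sets. That split had no settled direction: a t-statistic without moderation gave 2 higher and 137 lower, and an intensity trend with robust variances gave 30 and 96. Without STZ-O replicate 2 there were 2 higher and 18 lower, and without CB-O replicate 2 there were 45 and 5. There STZ-O replicate 1 stood 0.08 below the members' mean and CB-O replicate 1 stood 0.05 above it, while the other 4 arrays lay between 0.00 and 0.02 from it. After quantile normalization that median was -0.01, and without CB-O replicate 1 it was -0.03.

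The 12 bright members with the highest moderated t were 0.34 to 0.56 higher in STZ-O, with adjusted p of 0.688 to 0.801, and in each the groups did not overlap. TC1000004156.rn.1, between Exoc7 and Srp68, read 9.38, 9.40 and 9.42 in STZ-O livers, against 9.07, 8.99 and 8.93 in CB-O livers. TC1300000099.rn.1 read 10.51, 10.57 and 10.70 in STZ-O livers, against 10.16, 10.17 and 10.17 in CB-O livers, the tightest CB-O group of the 12. TC0100000181.rn.1 and TC2000000748.rn.1, on chromosomes 1 and 20, had the same values (10.04 ± 0.07 in STZ-O, 9.64 ± 0.07 in CB-O, SD, n = 3 each) and count as 1 measurement. TC0500000197.rn.1 differed most, with 9.97, 9.79 and 9.95 in STZ-O and 9.10, 9.53 and 9.39 in CB-O livers. Of the 24 nearest probe sets with a symbol on either side of the 12, 3 differed in the same direction at an unadjusted p under 0.05, where 2.8% of all probe sets were higher. Tp53inp1, a stress-induced target of p53, lies 2 ids from TC0500000197.rn.1 and was 0.44 ± 0.11 higher (9.47 in STZ-O, 9.03 in CB-O, adjusted p 0.832). Pigu, a subunit of the enzyme that attaches GPI anchors to proteins, lies beside TC0300005101.rn.1 and was 0.39 ± 0.09 higher (8.70 in STZ-O, 8.31 in CB-O, adjusted p 0.812). Pdcd5, linked to programmed cell death, lies 2 ids from TC0100005221.rn.1 and was 0.30 ± 0.09 higher (8.30 in STZ-O, 7.999 in CB-O, adjusted p 0.888).

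The 12 bright members with the lowest t were 0.27 to 0.80 lower in STZ-O, as absolute differences, with adjusted p of 0.806 to 0.885. TC1400002069.rn.1, next to Acox3, was the brightest of them, with 11.52, 11.68 and 11.48 in STZ-O livers, against 12.34, 11.89 and 11.995 in CB-O livers. TC0100006510.rn.1 read 8.23, 8.54 and 8.86 in STZ-O livers, against 9.08, 9.28 and 9.20 in CB-O livers. TC0400004145.rn.1 read 9.92, 10.03 and 9.95 in STZ-O livers, against 11.27, 10.53 and 10.35 in CB-O livers. Its neighbour A2m, the protease inhibitor alpha-2-macroglobulin and an acute-phase protein in the rat, was also lower, at 7.11 in STZ-O and 7.67 in CB-O livers (difference -0.56 ± 0.18, adjusted p 0.888). The difference of TC0400004145.rn.1 was -0.75, and -0.47 without CB-O replicate 1. TC0200001817.rn.1, beside Hao2, stood at -0.80, and at -0.49 without CB-O replicate 3, whose value of 10.11 was far above the other 2 CB-O arrays (9.17 and 9.16). TC0200000059.rn.1 was 0.36 lower (9.11 ± 0.15 in STZ-O, 9.47 ± 0.14 in CB-O), while the symbol 7 ids on, Arrdc3, an arrestin-domain gene, was 0.55 ± 0.09 higher (10.88 in STZ-O, 10.33 in CB-O, adjusted p 0.587). A2m was the 1 neighbour of 24 that differed in the same direction as its member at an unadjusted p under 0.05, where 2.54% of all probe sets were lower.

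**Figure D3:**
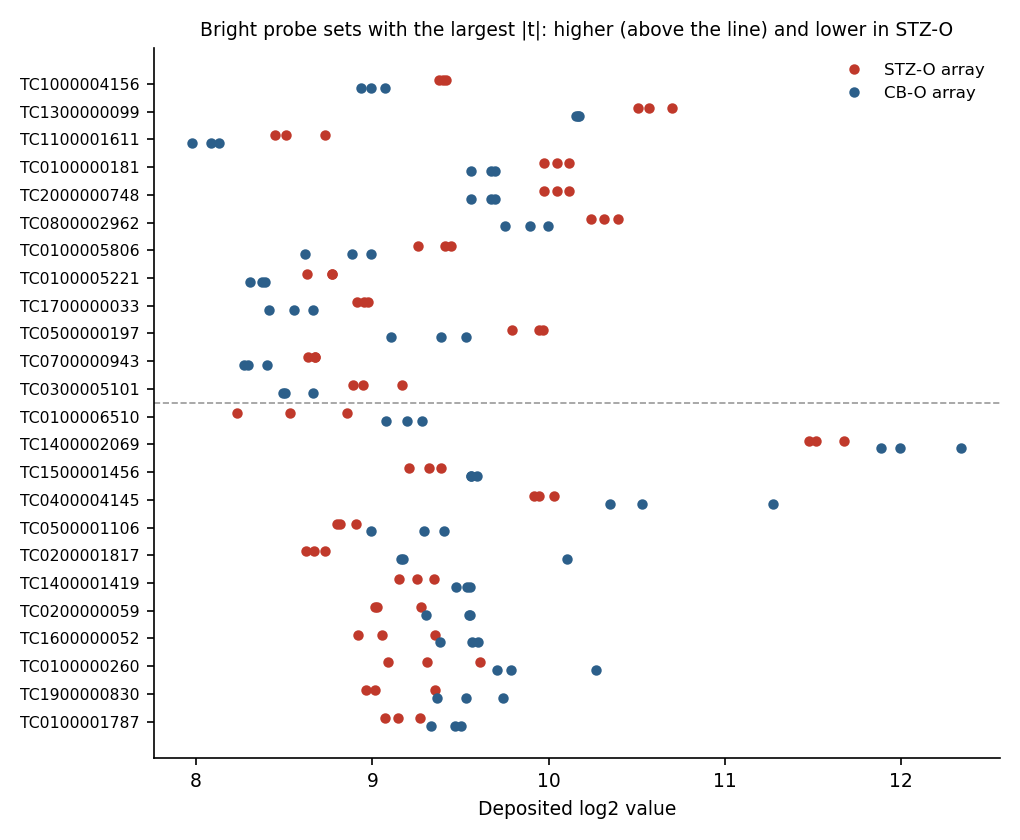
Deposited log2 level (x axis) of the 24 bright probe sets with the largest moderated t in each direction (y axis), with a red point per STZ-O array and a blue point per CB-O array. Above the dashed line all red points lie right of the blue ones and below it all lie left, by 0.27 to 0.80 log2 units between the group means.

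Some bright members varied widely without separating the groups. TC1000001659.rn.1 had the largest SD of them, 1.28 over 6 arrays, with 7.76, 10.004 and 9.84 in STZ-O and 10.64, 9.13 and 7.45 in CB-O livers. A single array stood apart in others: TC1200000272.rn.1 read 6.25 in STZ-O replicate 3 and 8.62 to 9.02 in the other 5 arrays, and TC1400001046.rn.1, beside Egfr, read 10.35 in CB-O replicate 3 and 8.0004 to 8.76 elsewhere. Of the 6 most variable, only TC0100005978.rn.1 had groups that did not overlap, with 10.29, 10.14 and 10.74 in STZ-O livers, against 10.01, 9.31 and 8.71 in CB-O livers.

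Members next to each other moved together more often than distant ones. After a member at an unadjusted p under 0.05, the next member in id order was called in the same direction in 7.89% of cases. For the member 200 members on it was 3.49%. For probe sets with a symbol the figures were 4.81% and 2.22%. Neighbouring members had the same sign in 52.2% of pairs, and members 200 members apart in 50.2%. Where a member was called higher and the adjacent probe set had a symbol, that gene was also called higher in 45 of 762 pairs (5.91%), against 2.49% of symbol probe sets in all such positions. For members called lower it was 22 of 686 (3.21%), against 1.71%.

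A run was defined as at least 4 neighbouring members whose STZ-O arrays were all above, or all below, the CB-O arrays. There were 10 runs holding 49 members, 8 higher and 2 lower in STZ-O, against 1 run among probe sets with a symbol, which are fewer. The direction of the runs depended on the setting. With a least length of 3 there were 19 higher and 19 lower, and with a least length of 2 there were 117 higher and 166 lower. With fewer arrays more runs were lower than higher without STZ-O replicate 2 (17 higher, 29 lower), without STZ-O replicate 3 (11 and 15) and without CB-O replicate 2 (13 and 24), while the other 3 omissions gave more higher runs. Runs were found by the values that define them, so their differences are descriptions. The longest was on chromosome 7: 9 members, TC0700002673.rn.1 to TC0700002681.rn.1, averaging 6.48, 6.33 and 6.73 in STZ-O livers, against 5.83, 6.02 and 6.13 in CB-O livers. Its mean difference was 0.52, ranging from 0.37 to 0.75 over the members. The strongest was TC0700002674.rn.1, with 5.54, 5.39 and 5.76 in STZ-O livers, against 4.75, 4.73 and 4.95 in CB-O livers.

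Another run, of 5 members and a mean difference of 0.44, lay just before it and enclosed Nav3, which encodes neuron navigator 3, a protein that binds microtubules. Nav3 itself read 6.89, 6.802 and 6.75 in STZ-O livers, against 6.39, 6.35 and 6.40 in CB-O livers, a difference of 0.43 ± 0.07 with an adjusted p of 0.605. The 1 member between both runs, TC0700002672.rn.1, was 0.39 higher with groups that overlapped. Counting from Ppp1r12a to Zdhhc17, 25 members lie in this stretch, of which 21 had a positive difference. The 14 without overlap are the members of both runs, for which this stretch was looked at. Over all members, 48.1% had a positive difference. The bounding genes Ppp1r12a and Zdhhc17 had differences of -0.01 and 0.00. Several members here stood below the median of the negative controls (2 of the 9 and 4 of the 5).

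On chromosome 11, a pair of runs separated by 1 member held 6 members (TC1100001604.rn.1 to TC1100001609.rn.1) and 4 members (TC1100001611.rn.1 to TC1100001614.rn.1). The 6 averaged 7.42, 7.49 and 7.78 in STZ-O livers, against 7.28, 7.16 and 7.14 in CB-O livers. The 4, all bright, averaged 8.59, 8.60 and 8.93 in STZ-O livers, against 8.30, 8.34 and 8.23 in CB-O livers. STZ-O replicate 3 was the highest array in both, and without it the mean differences were 0.26 in place of 0.37 and 0.30 in place of 0.42. They lie between Drd3 (difference -0.04) and Igsf11 (-0.01). In GRCr8, 4 protein-coding genes sit between these symbols: Tigit, Zbtb20, Gap43 and Lsamp. Zbtb20, a zinc-finger repressor that silences alpha-fetoprotein in mouse liver, is the one of these with no probe set of that symbol on the array, and the members were assigned to none of them.

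**Figure D4:**
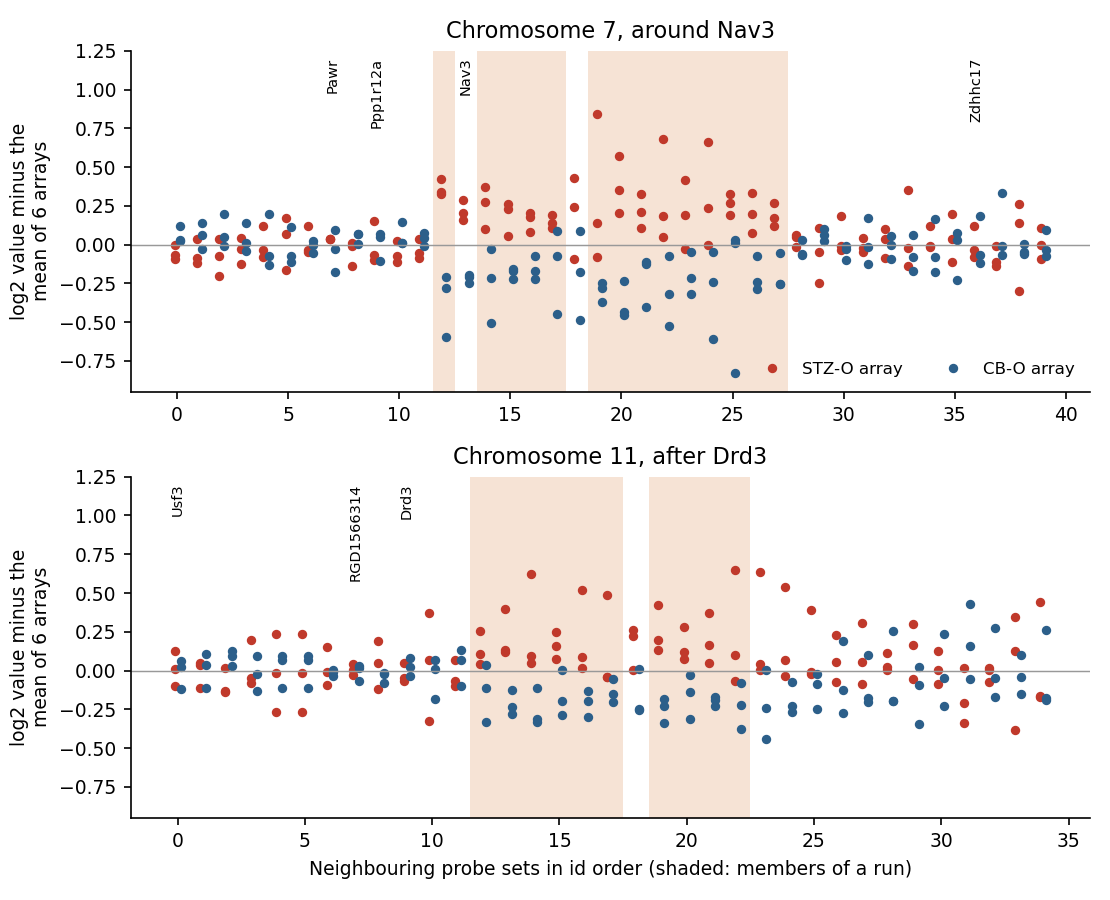
Log2 value minus the mean of the 6 arrays (y axis) for neighbouring probe sets in id order (x axis), with red points for STZ-O and blue points for CB-O arrays, around the runs on chromosomes 7 and 11. In the shaded runs the red points lie above the blue ones, with mean differences of 0.52 and 0.44 on chromosome 7 and 0.37 and 0.42 on chromosome 11, while Ppp1r12a, Zdhhc17 and Drd3 outside them lie near 0.

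The remaining runs that were higher in STZ-O held 4 or 5 members. On chromosome 3, TC0300000561.rn.1 to TC0300000565.rn.1 differed by 0.62 on average and held the member with the smallest p, TC0300000565.rn.1, which read 4.76, 4.96 and 4.83 in STZ-O livers, against 3.98, 3.93 and 3.99 in CB-O livers. These levels lie under the negative control median of 5.51. On chromosome 1, TC0100005803.rn.1 to TC0100005806.rn.1, after Klhl25, were all bright and averaged 9.03, 9.12 and 9.34 in STZ-O livers, against 8.37, 8.60 and 8.86 in CB-O livers. On chromosome 10, TC1000003983.rn.1 to TC1000003986.rn.1 averaged 6.73, 6.83 and 6.85 in STZ-O livers, against 6.59, 6.52 and 6.51 in CB-O livers. These 4 follow Pitpnc1, whose promoter is shown above. Pitpnc1 was 0.21 ± 0.07 higher (8.22 ± 0.03 in STZ-O, 8.01 ± 0.08 in CB-O, SD, n = 3 each, adjusted p 0.902). Each of the 12 members from Pitpnc1 to Cacng1 had a positive difference, where over all members 48.1% did. This interval was looked at because it holds the run. On chromosome 3, TC0300001765.rn.1 to TC0300001769.rn.1 enclosed Cds2, an enzyme of phospholipid synthesis, and differed by 0.19 on average, whereas Cds2 differed by 0.06.

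Both runs that were lower in STZ-O had a wider spread among CB-O than among STZ-O arrays. On chromosome 4, TC0400003110.rn.1 to TC0400003113.rn.1 averaged 5.06, 5.25 and 5.05 in STZ-O livers, against 6.41, 5.71 and 5.67 in CB-O livers, a mean difference of -0.81 over 3 distinct measurements. Of the 20 members from Jkampl to Hnrnpc-ps3 (17 distinct measurements), 19 had a negative difference and 1 a positive one. This interval was looked at because it holds the run, and over all members 48.1% had a positive difference. On chromosome 6, TC0600003266.rn.1 to TC0600003269.rn.1 averaged 5.62, 5.67 and 5.68 in STZ-O livers, against 6.02, 5.86 and 5.90 in CB-O livers, a mean difference of -0.27.

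This chromosome 6 run opens a longer stretch of members that were lower in STZ-O. Between Brf1 and Dync2i1 lie 165 members and 1 probe set with a symbol, Ighl8. The reference gene set places its 146 variable segments of chromosome 6 and 4 constant regions between the same genes, so the stretch spans the heavy-chain locus of antibodies. It also places 15 protein-coding genes, 20 pseudogenes and 8 long non-coding RNAs there, and no member was assigned to any of these genes. The stretch was picked after its values were seen. Of the 165 members, 131 had a negative difference, and the median was -0.16. Many of them were dim, with 85 below the median of the negative controls and 11 bright. At an unadjusted p under 0.05, 40 were lower (24.2%, against 2.54% of all probe sets) and 3 higher (1.82%, against 2.8%). Without overlap, 37 lay below CB-O (22.4%, against 5.35%) and 4 above it (2.42%, against 4.76%). None passed the adjusted threshold, with a smallest adjusted p of 0.605. TC0600003320.rn.1, 8 ids before Ighl8, had the most negative difference of all members: 6.96, 7.07 and 7.09 in STZ-O livers, against 9.24, 8.40 and 7.62 in CB-O livers, or -1.37 ± 0.34 (adjusted p 0.832). TC0600003330.rn.1, 2 ids after Ighl8, had the next: 7.12, 6.85 and 6.73 in STZ-O livers, against 8.88, 8.43 and 7.32 in CB-O livers.

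The median SD over these members was 0.141 among STZ-O and 0.186 among CB-O arrays, and STZ-O had the smaller SD in 101 of the 165. In the pair of members above the CB-O arrays were the more spread out, with replicate 1 at the top. Over the whole stretch, CB-O replicate 1 was the highest of the 6 arrays in 78 of the 165. Leaving out any 1 array kept 125 to 140 negative differences and a median between -0.20 and -0.15, and without CB-O replicate 1 there were 27 members lower at an unadjusted p under 0.05. A t-statistic without moderation left 15. Ighl8 differed by -0.12 (6.44 in STZ-O, 6.55 in CB-O). Lymphocyte and neutrophil markers were dim, with 0 of 4 measured bright, and their mean level ran from 5.75 to 5.86 over STZ-O and from 5.773 to 5.85 over CB-O arrays. Cd79b, part of the B-cell receptor, read 5.98 in STZ-O and 6.09 in CB-O livers (unadjusted limma p 0.264), and S100a8, a neutrophil protein, 5.04 in STZ-O and 5.08 in CB-O livers. Nkg7, a granule protein of cytotoxic lymphocytes, and Cd3e, part of the T-cell receptor complex, lay the other way, at 6.45 and 5.75 in STZ-O, against 6.35 and 5.69 in CB-O livers. None of the 4 reached an unadjusted p under 0.05. The part of the cell make-up in these differences was not tested, and in a bulk array fewer cells of a type and less RNA per cell cannot be told apart.

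**Figure D5:**
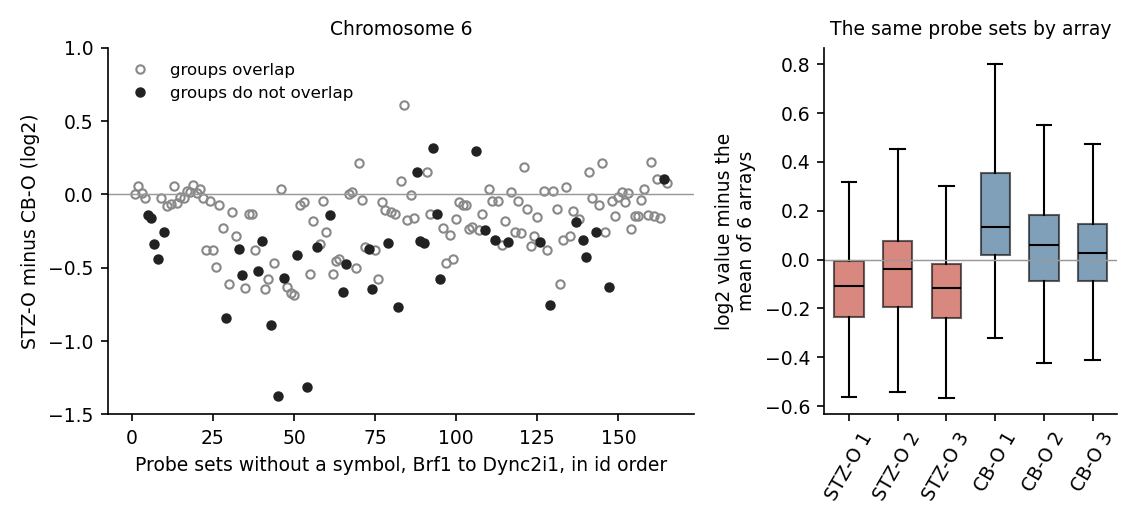
Left, STZ-O minus CB-O difference in log2 (y axis) of the 165 probe sets without a symbol between Brf1 and Dync2i1 in id order (x axis), filled where the groups do not overlap; 131 of them lie below 0. Right, boxes (median, quartiles, whiskers to the farthest value within 1.5 times the box height) of the same probe sets by array as log2 value minus the mean of the 6 arrays, with CB-O replicate 1 the highest.

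Large differences also occurred elsewhere. Among the 20 most negative members over all brightness, 6 had a variable segment as the nearest symbol on a side. Among the 20 most positive, 0 did. Of the 6, TC0600003320.rn.1, TC0600003330.rn.1, TC0600003318.rn.1 and TC0600003304.rn.1 belong to the chromosome 6 stretch above, with Ighl8 as that symbol. The others were TC1700001655.rn.1 beside Igkvl12 on chromosome 17 and TC0300000345.rn.1 beside Igkvl7 on chromosome 3. TC0300000345.rn.1 read 5.45, 5.53 and 5.31 in STZ-O livers, against 6.85, 6.95 and 5.89 in CB-O livers. The share of all members with such a neighbour was not counted. TC0100007671.rn.1, next to Cyp2c22, a cytochrome P450 gene, read 7.69, 8.68 and 8.56 in STZ-O livers, against 6.29, 5.78 and 7.35 in CB-O livers, a difference of 1.84 ± 0.40 (adjusted p 0.801). TC0100005977.rn.1, 5 ids after Cyp2c7, another cytochrome P450 gene, read 7.41, 7.55 and 7.89 in STZ-O livers, against 6.38, 6.40 and 6.73 in CB-O livers, a difference of 1.11 ± 0.14 (adjusted p 0.467). Cyp2c7 differed by 0.21 (12.16 in STZ-O, 11.95 in CB-O). The gene set places 1730 genes between Cyp2c7 and Or6a2, the next symbol in id order, so how near this member lies to Cyp2c7 is not settled. TC1900000697.rn.1, beside Hsd17b2, a hydroxysteroid dehydrogenase, read 8.05, 8.82 and 8.60 in STZ-O livers, against 7.91, 6.85 and 6.56 in CB-O livers. These 20 at either end were chosen after their values were seen, and their adjusted p ran from 0.467 to 0.9799.

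Groups of mostly positive members lay on chromosome 1. Between Nupr1 and the probe set of Snurf and Snrpn in id order, 27 of 31 members (25 distinct measurements) had a positive difference, with a median of 0.29. Of these, 14 were higher at an unadjusted p under 0.05 (45.2%, against 2.8% of all probe sets) and 0 lower. Without CB-O replicate 2 or CB-O replicate 3 the count was 9, and with a t-statistic without moderation it was 3. STZ-O replicate 1 was the highest array in 18 of the 31, and without it the count was 10. TC0100006597.rn.1 and TC0100006599.rn.1 shared the same values, 7.13, 5.775 and 6.28 in STZ-O livers, against 4.87, 5.01 and 5.30 in CB-O livers. Between Bex1 and Mgat4a-ps1, 45 of 63 members had a positive difference, with a median of 0.14, or 0.09 without STZ-O replicate 1, which was the highest array in 23 of them. At an unadjusted p under 0.05, 5 were higher (7.94%, against 2.8% of all probe sets) and 3 lower (4.76%, against 2.54%). With a t-statistic without moderation 1 was higher and 0 lower. One member here, TC0100005590.rn.1, was among the 20 most negative members, at -0.94. There TC0100005561.rn.1 read 5.76, 4.07 and 4.61 in STZ-O livers, against 3.69, 3.06 and 3.18 in CB-O livers. Most members of both groups were below the median of the negative controls, 25 of 31 and 57 of 63. The gene set does not place either pair of symbols next to each other, so only the id order is given.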

How the data were processed

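Liver RNA of 6 rats was measured on 1-colour Affymetrix rat transcriptome arrays. The authors deposited log2 values, 1 per probe set and array, made with Affymetrix Expression Console 1.4.1 and RMA, per the submitters' processing notes. RMA subtracts background, normalizes between arrays and compresses differences of dim probe sets. The settings of RMA and the build behind the probe sets are not given in the labels or file headers. Scanner intensities and detection calls were not used here.

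Members are probe sets whose id does not start with AFFX, ERCC or RG1 and that have no symbol in the platform annotation. Brightness was set against 1153 negative controls (RG1-neg). STZ-O was compared with CB-O with two-sided moderated tests of limma 3.58.1 (lmFit, then eBayes), run under R 4.3.3, on the 68842 non-control probe sets, adjusted by Benjamini-Hochberg over all of them, threshold 0.05. A ± after a difference is its standard error from limma, and after a mean it is the SD. Other steps used Python 3.11.15 and pandas 2.3.3. The fit was tested on simulated data. The number of arrays limits the precision. Neighbours are neighbours in id order. Probe set symbols come from the platform annotation, and gene positions and sequences from RefSeq (GRCr8), whose coordinates are printed only for sequences. A bordering symbol was used to look up genes between only where it lay within 5 Mb of the 5 symbols beyond it. By that rule Il23r, next in id order to the chromosome 4 run, gave way to Jkampl.

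Named members were the 10 brightest, the bright members with the 12 largest positive and 12 largest negative moderated t, the 6 most variable bright members, each run with at least 4 members, and the nearest symbols beside them. The members, lists and tests were chosen with earlier results of these data known. The largest differences, the stretches between named symbols and the counts with identical members taken once were added after the values were seen. Alternatives covered normalization, centring, brightness filters, variance models, array weights, a Y-linked level as a covariate, the replicate number as a block and each array left out.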

Additional observations from a re-analysis of the deposited data

How the results depend on the processing

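The count of members past the adjusted threshold was 0 in the reported limma fit and in the other fits on all 6 arrays. It was 0 to 1 with an array left out. The 1 call came without CB-O replicate 2, for TC1600001581.rn.1 (adjusted p 0.0473). Members at an unadjusted p under 0.05 numbered 2700 as reported and 2519 to 2997 with an array left out. Testing only probe sets above the median of the negative controls gave 1351 and above their 95th percentile 249, by construction from fewer probe sets. The median difference was -0.0055, between -0.0192 and 0.0083 with an array left out, and 0.0012 after centring the arrays, so its sign changed with the setting. Bright members numbered 4086, and 4060 to 4115 with an array left out, with 2173 above the 99th percentile and 21625 above the median of the negative controls. Runs numbered 10 (8 higher, 2 lower), became 38 at a least length of 3 and 4 at 5, and 16 when each neighbour needed an unadjusted p under 0.05. They numbered 6 among members above the negative control median, and 26 to 46 with an array left out, where fewer arrays make separate groups easier. Counting identical members once, an alternative chosen after seeing the data, left 9 runs and 3569 bright members. With the replicate number as a block, 1505 members were higher and 1324 lower at an unadjusted p under 0.05, with 0 past the adjusted threshold. Same-numbered arrays did not deviate together (correlations of 0.051, -0.099 and 0.0093), so the numbers were not taken as pairs. None of the 24 named bright members or 10 runs changed direction under these settings. With an array left out a reversal could not occur, because the groups of these members do not overlap. Those settings therefore do not test the direction. Dim members near the negative controls are limited by signal over background.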
